A study of Mus musculus with 12 samples.

Results

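In cultured mouse adipocyte progenitors, 442 acetylated regions stood among the strongest H3K27ac peaks of wild-type libraries and of no Azin2-/- library. They were chosen from the 5000 peaks of highest score in each of 6 libraries, on chromosomes 1 to 19 and X. Peaks sharing 1 bp or more were joined into 11092 merged regions, and a region counted as wild-type-only when at least 2 of 3 wild-type libraries and none of the 3 Azin2-/- libraries held a peak there. The 442 regions are 3.98% of the merged regions. The same rule with the genotypes exchanged gave 833 knockout-only regions, or 7.51%. Presence in the lists therefore defines these regions, and every comparison of peak strength between genotypes at them is a description without a test.

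H3K27ac is the acetylation of lysine 27 on histone H3. It is laid down by the acetyltransferases p300 and CBP, marks active promoters and enhancers, and is read by bromodomain proteins. Adipocyte progenitors are mesenchymal cells of the fat stroma that become fat cells when insulin, a glucocorticoid and a PPAR-gamma ligand are given. Wnt signalling is known to hold such cells back from that fate. Azin2 encodes antizyme inhibitor 2, which frees ornithine decarboxylase, the first enzyme of polyamine synthesis, from its inhibitor antizyme.

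The cells came from subcutaneous fat of Azin2-/- mice, labelled as a knockout of Azin2, and of wild-type mice (WT), each with 3 libraries: replicates 1, 2 and 8 for Azin2-/- and replicates 1, 2 and 2b for wild-type. All cultures were grown for 1 week and then kept for 2 days with 1 µM rosiglitazone, 1 µM dexamethasone, 0.5 mM IBMX and 5 µg/ml insulin and for 5 days with insulin alone, so both genotypes had been exposed to the differentiation mixture. The kind of knockout allele, the age of the mice and whether libraries came from separate animals are not stated in the labels. The p-values below thus measure the spread between these libraries, which may be technical. The labelled cell type could be checked only in part: of 12 progenitor and mesenchymal marker genes, 9 lacked a list peak in every library, counting the gene and its 5 kb flanks, with Dlk1, Dpp4 and Cd34 among them. Of the other 3, all had one in wild-type replicate 1, 1 in replicate 2b and none in wild-type replicate 2 or in Azin2-/- libraries. Of 8 fat cell markers, Cebpa had one in all 6 libraries and 4, Pparg and Adipoq among them, had one in none. By library, 3, 3 and 2 fat cell markers had one in wild-type replicates 1, 2 and 2b. The counts were 1, 1 and 2 in Azin2-/- replicates 1, 2 and 8. For other cell types, 0, 0 and 2 of 6 leukocyte markers had one in wild-type replicates 1, 2 and 2b and 2, 1 and 2 in Azin2-/- replicates 1, 2 and 8. No library had more than 1 of 5 for endothelium, muscle or Schwann and neural cells, and these came from Azin2-/- replicates 1 and 2. The part of other cells in the results was not tested.

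Equal list lengths do not mean equal strength. The weakest of the 5000 peaks had a deposited −log10 q of 20.3 in Azin2-/- replicate 1 and of 3.0 to 6.89 in the other libraries. Wild-type replicate 1 stood apart in another way: 41.0% to 43.6% of its peaks overlapped a peak of a given Azin2-/- library, against 54.7% to 61.3% for wild-type replicates 2 and 2b. Overlap did not sort all lists by genotype. Wild-type replicate 2 overlapped replicate 2b in 68.3% of its peaks and replicate 1 in 53.7%. Its overlap with Azin2-/- lists was 57.4% to 59.1%. Replicate 2b overlapped wild-type replicate 1 in 59.2% and Azin2-/- replicates 1, 2 and 8 in 57.5%, 54.7% and 61.3%. Read totals are not given, so depth is unknown.

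The sequences below show what kind of start site these regions cover, for 6 members at genes described further on. Each is the stretch of 250 bases before the start site in the RefSeq promoter table of GRCm38.p6, read 5′ to 3′ on the gene's strand, and lies inside a wild-type-only region. Capitals mark CpG, a C followed by a G. They are Tbx18 (chr9:87731261-87731510, minus strand), a T-box transcription factor; Lats2 (chr14:57746124-57746373, minus strand), a Hippo kinase; Tcf7l1 (chr6:72789046-72789295, minus strand), a DNA-binding partner of beta-catenin; Bmpr1a (chr14:34502547-34502796, minus strand), a BMP receptor; Fbn1 (chr2:125506439-125506688, minus strand), the microfibril protein fibrillin 1; and Gnaq (chr19:16132434-16132683, plus strand), a G protein alpha subunit.
Tbx18: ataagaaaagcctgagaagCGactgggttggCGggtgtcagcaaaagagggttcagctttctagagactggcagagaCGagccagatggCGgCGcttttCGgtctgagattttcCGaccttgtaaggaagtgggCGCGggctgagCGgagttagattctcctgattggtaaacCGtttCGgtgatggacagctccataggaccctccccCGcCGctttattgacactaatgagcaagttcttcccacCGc
Lats2: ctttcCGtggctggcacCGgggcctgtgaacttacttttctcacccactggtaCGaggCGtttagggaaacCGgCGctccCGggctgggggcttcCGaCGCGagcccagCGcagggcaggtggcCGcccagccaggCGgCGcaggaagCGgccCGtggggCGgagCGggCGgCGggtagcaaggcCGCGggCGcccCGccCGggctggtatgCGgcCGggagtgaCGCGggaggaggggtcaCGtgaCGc
Tcf7l1: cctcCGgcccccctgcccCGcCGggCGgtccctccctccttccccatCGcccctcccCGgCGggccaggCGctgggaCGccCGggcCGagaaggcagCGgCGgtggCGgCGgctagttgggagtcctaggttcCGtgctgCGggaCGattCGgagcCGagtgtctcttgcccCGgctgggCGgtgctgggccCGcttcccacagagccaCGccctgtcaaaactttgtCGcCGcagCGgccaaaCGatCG
Bmpr1a: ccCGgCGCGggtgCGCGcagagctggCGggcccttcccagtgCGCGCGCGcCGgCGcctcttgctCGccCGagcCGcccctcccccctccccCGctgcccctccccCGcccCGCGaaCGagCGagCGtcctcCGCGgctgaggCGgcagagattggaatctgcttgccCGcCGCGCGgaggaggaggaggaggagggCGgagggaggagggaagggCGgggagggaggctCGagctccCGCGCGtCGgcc
Fbn1: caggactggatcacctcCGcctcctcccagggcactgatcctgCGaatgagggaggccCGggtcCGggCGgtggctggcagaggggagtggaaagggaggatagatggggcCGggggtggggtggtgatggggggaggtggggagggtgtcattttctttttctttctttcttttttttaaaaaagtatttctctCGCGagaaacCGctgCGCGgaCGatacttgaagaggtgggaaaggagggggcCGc
Gnaq: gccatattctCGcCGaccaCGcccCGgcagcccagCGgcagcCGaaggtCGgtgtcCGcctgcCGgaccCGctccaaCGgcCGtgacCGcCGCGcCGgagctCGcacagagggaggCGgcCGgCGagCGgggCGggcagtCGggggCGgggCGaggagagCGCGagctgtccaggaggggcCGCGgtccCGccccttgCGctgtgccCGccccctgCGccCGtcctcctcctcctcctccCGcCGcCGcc
The number of CpG in these stretches ran from 13 at Fbn1 and 15 at Tbx18 to 29 at Tcf7l1, 31 at Lats2, 36 at Bmpr1a and 37 at Gnaq. All 6 are rich in C and G, from 54% at Tbx18 to 79.2% at Gnaq.

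Nearly every wild-type-only region also had an Azin2-/- peak, at a lower rank in its own list. A lower rank need not be a lower signal, since the lists differ in strength. The lowest deposited fold ratio among the 5000 peaks was 10.4 in Azin2-/- replicate 1. It was 5.17 and 2.07 in Azin2-/- replicates 2 and 8 and 2.64, 4.47 and 3.33 in wild-type replicates 1, 2 and 2b. The high value thus belongs to Azin2-/- replicate 1 and not to the genotype. Of the 442 regions, 429 had a deposited peak of some strength in all 3 Azin2-/- libraries and 2 had none in any. The deposited lists are long, with 886600, 1163496 and 766846 peaks in Azin2-/- replicates 1, 2 and 8. Over all libraries they reach down to a −log10 p of 1.0. The same share was not counted over all merged regions, so the 429 are not read as a trait of these regions. The strongest Azin2-/- peak over a region ranked at a median of 6468 in its list, and it lay between ranks 5001 and 6000 for 174 regions and within the 10000 strongest for 374. By library, the median rank over the regions was 8440 in Azin2-/- replicate 1, 9960 in replicate 2 and 13207 in replicate 8. In the wild-type lists the medians were 2660, 3828 and 3155 for replicates 1, 2 and 2b. Counting every peak with a q no higher than 0.01, Azin2-/- replicate 1 had one over 435 of the regions, replicate 2 over 276 and replicate 8 over 169. Such peaks numbered 26146, 15091 and 9798 in these libraries, in the same order. Their shares over all merged regions were not counted, so these counts are not read as a trait of the regions. The name "wild-type-only" thus holds for lists of 5000 peaks, and 5 regions stayed without an Azin2-/- peak when the 30000 strongest were allowed, against 82 of the knockout-only regions without a wild-type peak.

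**Figure D1:**
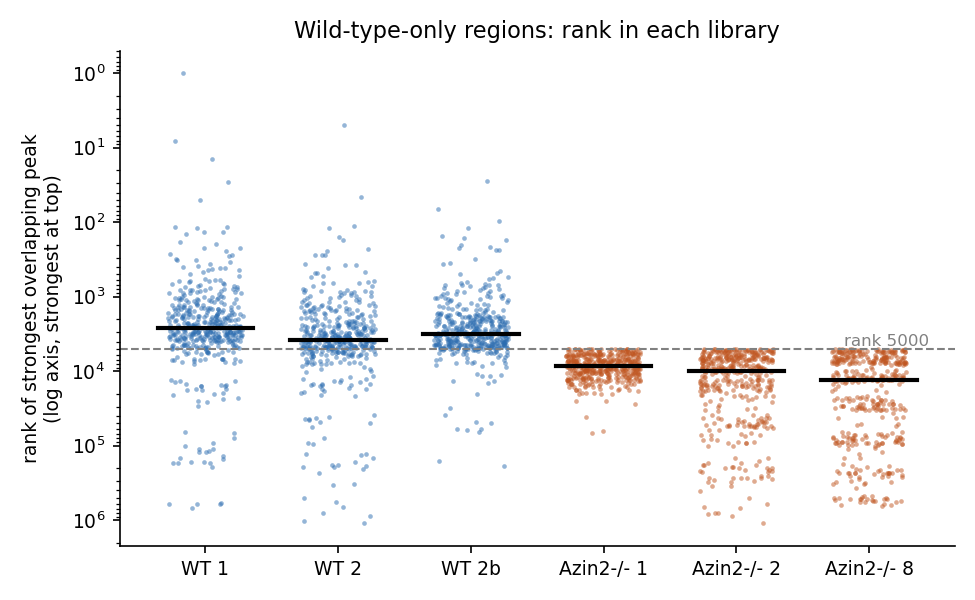
Rank of the strongest deposited peak over each of the 442 wild-type-only regions in each library, on a log axis with the strongest at the top. Each point is 1 region, black bars are medians over all 442 and the dashed line is rank 5000. Regions without a peak in a library have no point there. The rule places no Azin2-/- point above the line, and in Azin2-/- replicate 1 most points lie close under it, with a median of 8440.

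All 3 wild-type libraries held 174 of the regions. Replicates 1 and 2b without 2 held 131, replicates 2 and 2b without 1 held 78, and replicates 1 and 2 without 2b held 59. Replicate 1 therefore took part in 364 regions, replicate 2 in 311 and replicate 2b in 383. Replicates 2 and 2b, whose labels share a number, did not make up most of the pairs. All 3 Azin2-/- libraries held 158 of the 833 knockout-only regions, while the 174 are 39.4% of the wild-type-only ones. The number of wild-type-only regions was 254 without wild-type replicate 1, 307 without replicate 2 and 237 without replicate 2b, where both remaining libraries had to hold a region. It was 753, 707 and 822 without Azin2-/- replicates 1, 2 and 8.

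**Figure D2:**
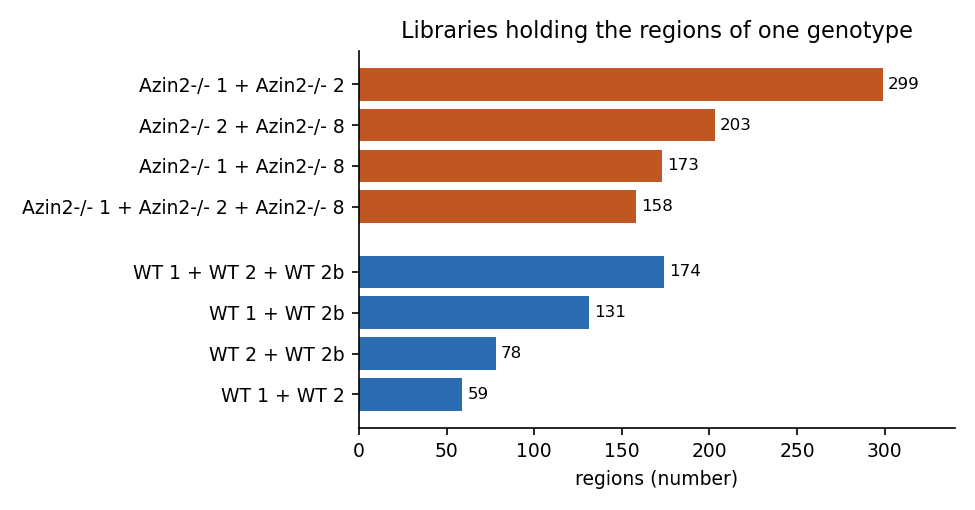
Number of regions by the set of libraries that held them, with wild-type-only regions in blue and knockout-only regions in orange. The largest blue bar is the one for all 3 wild-type libraries, at 174, while the largest orange bar is for Azin2-/- replicates 1 and 2, at 299.

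Presence in the lists was then read in libraries left out of the selection rule. Each of 9 selections left 1 wild-type and 1 Azin2-/- library out of the rule. A region was taken when both remaining wild-type libraries and neither remaining Azin2-/- library held it. The regions were still those merged from the lists of all libraries, the left-out ones included. Peaks of the left-out libraries thus helped to draw the regions, and the shares below are not an independent check. Between 386 and 573 regions were selected. The left-out wild-type library held 63.6% to 82.7% of them and the left-out Azin2-/- library 32.7% to 53.6%. The wild-type share was higher in 9 of 9 selections, by 14.9 to 35.0 percentage points, with a mean of 26.2 ± 7.79 (SD, n = 9 selections, which share libraries, so no p is given). In the mirror selection of knockout-only regions the Azin2-/- share was higher in 8 of 9, by a mean of 16.8 ± 12.9 points. With the 10000 strongest peaks the mean for wild-type-only regions was 6.85 points, with wild-type replicates 2 and 2b joined as 1 library it was 8.63, and with all peaks at a q of 0.01 or less it was -4.36.

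**Figure D3:**
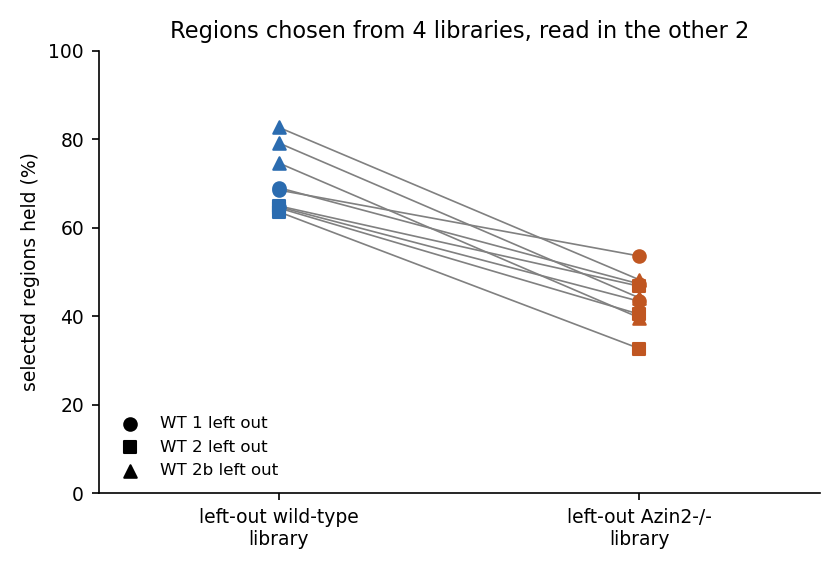
Share of selected regions held by the left-out wild-type library (blue) and by the left-out Azin2-/- library (orange), in percent, for 9 selections joined by lines. The shape of both points shows which wild-type library was left out. Each line falls from left to right, from 63.6 to 82.7% on the left to 32.7 to 53.6% on the right.

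The strongest region of all was at Lrp6, which encodes a co-receptor for Wnt ligands. This region, chromosome 6 from 134565561 to 134567895 in GRCm38, overlaps the gene end with the higher coordinate. It ranked 8, 5 and 175 in wild-type replicates 1, 2 and 2b, and 10741, 9218 and 7748 in Azin2-/- replicates 1, 2 and 8. The wild-type libraries thus had some of their strongest peaks here, and all Azin2-/- libraries had a peak beyond the list that still reached a q of 0.01 or less. Covered length was 1087, 1530 and 2335 bp in the 3 wild-type lists.

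The next 11 by mean wild-type rank included regions of signalling and developmental genes. A region on chromosome 6 from 119478827 to 119481292 lies inside Wnt5b, a Wnt ligand, and at the end of Fbxl14, which encodes an F-box protein. It ranked 29, 897 and 28 in wild-type replicates 1, 2 and 2b and 6332, 6017 and 13142 in Azin2-/- replicates 1, 2 and 8. Inside Tbx15, a T-box factor of mesenchyme and fat depots, the region on chromosome 3 from 99252167 to 99254788 ranked 136, 120 and 998, against 10277, 8491 and 24458. The related Tbx18 had its region, chromosome 9 from 87729468 to 87732014, over the start site printed above, with ranks of 523, 646 and 1055 against 7414, 9674 and 520311. Azin2-/- replicate 8 was thus far from the other libraries at Tbx18, while replicates 1 and 2 had peaks within their 10000 strongest.

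Zeb2, a zinc-finger repressor in TGF-beta responses, carried the broadest of these 12 regions, chromosome 2 from 45105749 to 45110842. Its wild-type ranks were 184, 860 and 315 and its Azin2-/- ranks 5685, 13209 and 7752. At Lats2, the kinase that restrains YAP and TAZ, the region on chromosome 14 from 57743166 to 57746758 ranked 1016, 814 and 203 in wild-type. In Azin2-/- it ranked 5946, 6321 and 6246, close to the list's end in every library. The other 6 lay at Specc1l, a cytoskeletal linker gene, at Rb1cc1, a gene of autophagy initiation, at the deubiquitinase gene Usp24, at Wdr41 and Spaca6, and at the neighbours Sfi1, Gm51877 and Eif4enif1.

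Regions just inside and just outside the rule differed by a few ranks. The Tshz2 region was admitted by rank 4992 in wild-type replicate 2, a region 85105 bp from Arid1b by rank 4989 in replicate 2b and the Bicc1 region by rank 4987 in replicate 2. On the Azin2-/- side, Armc8 was kept with a best rank of 5018, and Marcks and the region of Marveld2 and Rad17 with 5025 each. Ube2q1, Pggt1b and Arl8b met the wild-type condition but fell outside, with best Azin2-/- ranks of 4997, 4992 and 4990.

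Wild-type-only regions were mostly promoter regions. The summit of the strongest wild-type peak lay within 1 kb of an end of a protein-coding gene in 310 of 442 regions (70.1%), farther inside a gene in 96 (21.7%) and between genes in 36 (8.14%). At gene ends were 59.3% of knockout-only regions, 77.5% of the 840 regions held by all 6 libraries and 57.1% of all merged regions. Outside chromosome 18, for which the promoter table has no entry, 310 of 431 wild-type-only regions (71.9%) held an annotated start site, against 54.3% of knockout-only regions. Where a region held one, the summit lay downstream of the nearest start site in 78.1%. The median over all 310, with upstream distances counted as negative, was 152 bp downstream. The downstream share was 80.1% in knockout-only regions and 80.2% in regions held by all 6 libraries. Regions held by all 3 wild-type libraries were at gene ends in 76.4% and those held by 2 of 3 in 66.0%. Their median widths were 1766 and 1366 bp, and 2052 bp for regions held by all 6 libraries.

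Of the 442 regions, 10 lay within 50 kb of another (2.26%). That share rises with the number of regions, so it is not set against the larger sets. No protein-coding gene had 3 or more of them in its body or 5 kb flanks, and 5 genes had 2. Of the 442, 414 lay within 5 kb of a protein-coding gene, 18 of them at a gene that also had a knockout-only region. At a gene with a region held by all 6 libraries lay 10. Of all protein-coding genes, 4.6% had a knockout-only region and 4.97% a region held by all 6. These counts were not made over all merged regions, so nothing is read from them. One stretch was denser: on chromosome 17 between 80 and 89 Mb 8 of 52 merged regions (15.4%) were wild-type-only, at Sos1, Eml4, Mta3, Plekhh2, Rhoq, Calm2 and Fbxo11. This stretch was chosen after its values were seen.

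The start sites in wild-type-only regions were those of CpG-rich promoters. The 435 promoters had a median G and C content of 68.7% and a median ratio of observed to expected CpG of 0.885 in the window of 300 bases. The 572 promoters in knockout-only regions had 65.3% and 0.768, the 939 in regions held by all 6 libraries 67.3% and 0.873, and all RefSeq promoters a median of 53% and 0.387. The 7893 promoters of all merged regions had 66.3% and 0.841. On both medians the wild-type-only promoters were the highest of these sets, though close to those held by all 6 libraries. Their lower quartile of the ratio was 0.743, against 0.748 for promoters held by all 6.

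The difference between wild-type-only and knockout-only promoters was compared over libraries, with peaks that overlap no list peak of the other genotype. The median ratio was 0.866, 0.884 and 0.857 in wild-type replicates 1, 2 and 2b and 0.763, 0.776 and 0.793 in Azin2-/- replicates 1, 2 and 8. The groups did not overlap, with means of 0.869 ± 0.0135 and 0.777 ± 0.0148 (SD, n = 3). The exact permutation test, two-sided, gave p = 0.1, which is the lowest value possible for 3 against 3 libraries, and an adjusted p of 0.167 over 5 measures. The peaks of all 5 measures were chosen by genotype, and the choice was not repeated when labels were exchanged. These p-values are therefore descriptive and support no genotype difference. The comparison was added after the values of the regions were seen, and with lists of all peaks at a q of 0.01 or less, which differ in length from 6858 to 26146 peaks, the difference went from 0.0915 to -0.277. The median G and C content of those promoters was 68.1% ± 1.84 in wild-type and 65.3% ± 0.577 in Azin2-/- (SD, n = 3; exact permutation p = 0.1, adjusted 0.167).

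The share of such peaks at gene ends did not separate the genotypes. It was 22.3%, 59.4% and 67.3% in wild-type replicates 1, 2 and 2b and 51.2%, 47.3% and 52.0% in Azin2-/- replicates 1, 2 and 8 (exact permutation p = 1, adjusted 1). Wild-type replicate 1 was the lowest of all libraries and had the most such peaks, 1882 against 653 to 1320. Without it the difference went from -0.507 to 12.3 points, and without Azin2-/- replicates 1, 2 or 8 to 3.87, 0.5 and 6.32. Restricted peaks made up 21.8% ± 13.7 of the wild-type lists and 25.6% ± 1.05 of the Azin2-/- lists (SD, n = 3; exact permutation p = 0.7, adjusted 0.875).

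**Figure D4:**
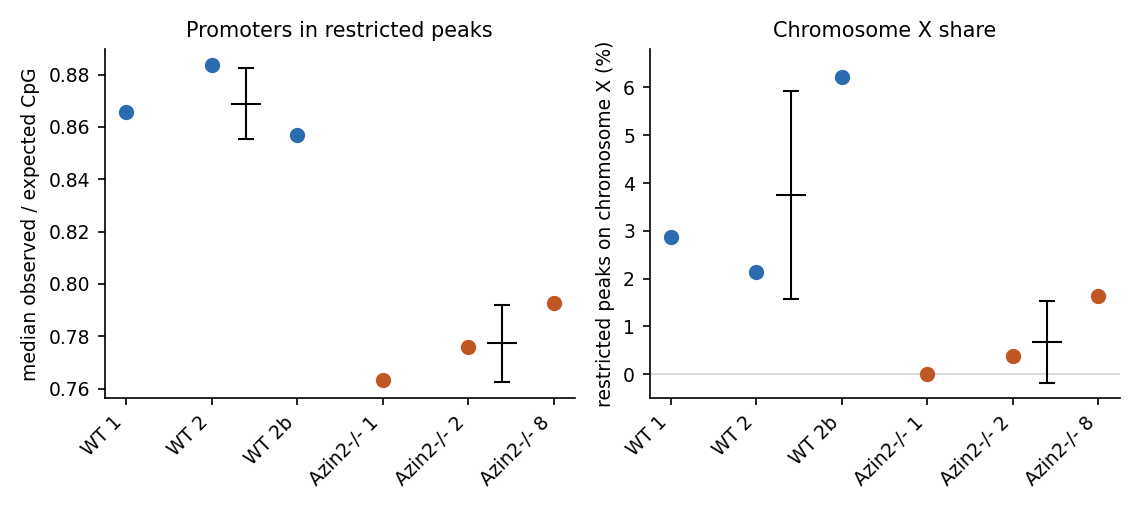
Peaks of each library that overlap no list peak of the other genotype. The left panel shows the median ratio of observed to expected CpG in the promoters they cover, on an axis that does not start at 0, and the right panel the percent that lie on chromosome X. Points are libraries, and bars beside them are means with SD over 3 libraries. Wild-type points lie at 0.857 to 0.884 on the left and 2.14 to 6.22% on the right, above all Azin2-/- points.

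Motifs for factors of mesenchymal cells and fat occurred in wild-type-only promoters about as often as in the promoters of all merged regions, with the widest gaps for the MEF2 and EBF letters, which were rarer. These shares were not tested. The letters were searched on both strands of the 300 bases, and matches of different motifs may overlap. The AP-1 motif TGANTCA was in 2.76% of the 435 promoters, 4.72% of knockout-only promoters, 3.69% of promoters in all merged regions and 7.85% of all promoters. For the C/EBP motif TTGCNNAA the shares were 5.06%, 5.24%, 6.11% and 10.9%, and for the TEAD motif GGAATG 10.6%, 11.01%, 10.3% and 14.6%. The EBF letters CCCNNGGG were in 21.4%, 24.5%, 24.0% and 13.8%, the ETS letters CCGGAAGT in 5.75%, 6.12%, 6.63% and 3.91% and the E-box CAGCTG in 14.3%, 19.2%, 14.5% and 16.4%. The glucocorticoid receptor letters ACANNNTGT were in 2.99%, 2.1%, 2.47% and 6.89%. The MEF2 motif was in 0.69%, 2.8%, 2.2% and 3.71%. The NFI motif was in 0 of the 435, 2 of 7893 promoters of all merged regions and 12 of 32619 RefSeq promoters, too rare for a comparison.

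Chromosome X held 18 of the wild-type-only regions and 1 of the knockout-only regions. These are 11.7% and 0.649% of the 154 merged regions there. Wild-type replicates 1 and 2b held all 18 and replicate 2 held 6. The genes include Stag2, a cohesin subunit, Kdm6a, a demethylase of the same lysine 27, the chromatin remodeller Atrx, the RNA helicase Ddx3x, Fmr1, which encodes an RNA-binding protein of neurons, the corepressor subunit Tbl1x and Pdha1, a subunit of pyruvate dehydrogenase. At Stag2, chromosome X from 42148624 to 42151275, the ranks were 1089, 1799 and 239 in wild-type replicates 1, 2 and 2b and 13061, 291348 and 27587 in Azin2-/- replicates 1, 2 and 8. At Kdm6a, chromosome X from 18162497 to 18164231, they were 1989, 6814 and 1797 against 15085, 7354 and 7867. Wild-type replicate 2 was thus closer to Azin2-/- replicates 2 and 8 at Kdm6a than to the other wild-type libraries.

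The count of X peaks differed between libraries of a genotype. Among the 5000 strongest there were 72, 28 and 78 in wild-type replicates 1, 2 and 2b, and 4, 22 and 51 in Azin2-/- replicates 1, 2 and 8, so that replicate 8 of Azin2-/- exceeded wild-type replicate 2. Among the 30000 strongest, Azin2-/- replicate 1 had 764, above the 298 to 700 of the other libraries. Of the peaks without overlap in the other genotype, 2.87%, 2.14% and 6.22% lay on X in wild-type and 0%, 0.379% and 1.64% in Azin2-/- (two-sided exact permutation p = 0.1, adjusted 0.167). These peaks too were chosen by genotype before labels were exchanged, so this p supports no genotype difference on X. This comparison too was added after the values were seen, and at a q of 0.01 or less the difference of 3.07 points became -0.468 (exact permutation p = 0.8). The sex of the mice is not given. Peaks on chromosome Y at a q of 0.01 or less numbered 2, 3 and 1 in wild-type replicates 1, 2 and 2b and 7, 2 and 0 in Azin2-/- replicates 1, 2 and 8. At Xist, the RNA of X inactivation, the strongest peak ranked 21932 in Azin2-/- replicate 1 and between 150131 and 336489 elsewhere. The part of sex or of list strength in the X regions was not tested.

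Of 21631 protein-coding genes, 506 (2.34%) had a wild-type-only region in the gene or its 5 kb flanks and 996 (4.6%) had a knockout-only region. Within 1 kb of a gene end the shares were 1.78% and 2.8%. The 13 lists of genes were read against these shares. Longer genes have more room for a region, and in every list but those of AP-1, glucocorticoid response, lipid and polyamine genes the median gene was longer than the 17.3 kb of all genes. Several lists also had large shares of genes with a region held by all 6 libraries, against 4.97% of all genes. These were 26.7% for TGF-beta and BMP, 21.4% for Wnt, 21.1% for glucocorticoid response, 20% for YAP, TAZ and TEAD, 16.7% for adipogenic factors and 15.8% for mesenchymal transcription factors. No list was tested.

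Of 28 genes of Wnt signalling 5 (17.9%) had a wild-type-only region and 0 a knockout-only one. Beside the ligand Wnt5b and the co-receptor Lrp6 these were the ligands Wnt5a and Wnt10b and the transcription factor Tcf7l1. The region inside Wnt5b lies at an end of Fbxl14 and not of Wnt5b. Within 1 kb of a gene end 4 of the 28 (14.3%) had a region, against 1.78% of all genes. Wnt10b, known as a brake on adipogenesis, had a region on chromosome 15 from 98778420 to 98779163 that was held by wild-type replicates 1 and 2b. It ranked 440, 17440 and 4167 in wild-type replicates 1, 2 and 2b and 17782, 5333 and 517580 in Azin2-/- replicates 1, 2 and 8, so wild-type replicate 2 lay beyond Azin2-/- replicate 2. At Wnt5a, chromosome 14 from 28504204 to 28506532, the wild-type ranks were 989, 2382 and 1794, and the Azin2-/- ranks 5078, 6216 and 129874. Tcf7l1, with its region on chromosome 6 from 72787928 to 72790079, had 1053, 3971 and 2922 against 5234, 8637 and 5217. Its deposited fold ratios were 8.42, 6.52 and 9.5 in wild-type and 12.8, 4.74 and 3.46 in Azin2-/-. The fold ratio of Azin2-/- replicate 1 was thus the highest there despite its lower rank.

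Transcription factors of mesenchyme and depot identity had the largest share among the 13 lists, 8 of 38 (21.1%), against 3 (7.89%) with a knockout-only region. They were Tbx15, Tbx18, the Hox gene Hoxc8, the homeobox gene Meis2, the orphan receptors Nr2f1 and Nr2f2, the forkhead gene Foxp2 and the E protein gene Tcf4. Nr2f2, or COUP-TFII, had one region at a gene end and another in the gene. The first, chromosome 7 from 70350744 to 70351889, ranked 613, 1380 and 3130 in wild-type and 5919, 15822 and 523970 in Azin2-/-. At Hoxc8, chromosome 15 from 102990190 to 102991652, the ranks were 872, 7639 and 3016 against 5682, 7732 and 68233, with wild-type replicate 2 outside its list and next to Azin2-/- replicate 2. Nr2f1 had a knockout-only region as well.

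The TGF-beta and BMP list had 3 of 30 genes (10.0%) and no knockout-only region. They were Zeb2 and the type I receptors Bmpr1a and Acvr1. Bmpr1a ranked 359, 2352 and 1687 in wild-type and 9679, 9421 and 23816 in Azin2-/-. Acvr1, chromosome 2 from 58565698 to 58568108, ranked 2854, 3251 and 3749 against 17567, 15832 and 27409, far beyond the list in every Azin2-/- library. In the YAP, TAZ and TEAD list 2 of 20 genes (10.0%) had one: the kinase Lats2 and its scaffold Sav1. At Sav1, chromosome 12 from 69985666 to 69988593, ranks were 5340, 4020 and 4086 in wild-type and 12155, 16917 and 257749 in Azin2-/-.

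Among genes of histone acetylation 3 of 25 (12%) had a wild-type-only region and 2 (8.0%) a knockout-only one. The acetyltransferase gene Kat6a was among the 3 with a wild-type-only region. Its region, held by wild-type replicates 1 and 2b, ranked 3488, 5946 and 4180 against 14660, 161882 and 65255.

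Fat cell regulators gave small counts. Of 30 adipogenic transcription factors 2 (6.67%) had a wild-type-only region, as many as had a knockout-only one: Klf9, a factor induced by glucocorticoids, and Zfp521, a known inhibitor of adipogenesis. Zfp521 had adjacent regions on chromosome 18, of which that from 13970944 to 13972631 ranked 434, 4356 and 1228 in wild-type and 8150, 47879 and 261281 in Azin2-/-. The glucocorticoid list had 2 of 19 (10.5%), Klf9 and the kinase gene Sgk1. The Sgk1 region ranked 811, 7834 and 927 against 12995, 15855 and 5584. The lists of lipid storage and synthesis (30 genes), polyamine (20) and AP-1 genes (12) had 0 genes with a region of either kind. At background shares of 2.34% and 4.6%, lists this short give few genes or none, and their median genes, 13.2, 12.4 and 7.83 kb long, are shorter than that of all genes, so nothing is read from these counts.

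Matrix and adhesion genes stood nearer to the background. Of 37 matrix genes 2 (5.41%) had a wild-type-only region and 0 a knockout-only one. Fbn1, chromosome 2 from 125504578 to 125507322, ranked 222, 1436 and 2335 in wild-type and 6194, 16866 and 24616 in Azin2-/-, and Timp2, a protease inhibitor, 14151, 4204 and 3314 against 8014, 8208 and 76584. At Timp2 wild-type replicate 1 thus lay beyond Azin2-/- replicates 1 and 2. The adhesion list had 1 of 38 (2.63%), the docking protein gene Bcar1. In the list of growth factor and G protein signalling 2 of 34 (5.88%) had a wild-type-only region and 2 a knockout-only one. Gnaq, chromosome 19 from 16131631 to 16134828, ranked 2330, 1079 and 2448 in wild-type and 6989, 19267 and 65004 in Azin2-/-. Pdgfra, the receptor that marks fat progenitors, was the single marker of the labelled cell type with a wild-type-only region, ranking 3010, 6578 and 3951 against 7949, 796044 and 25225.

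**Figure D5:**
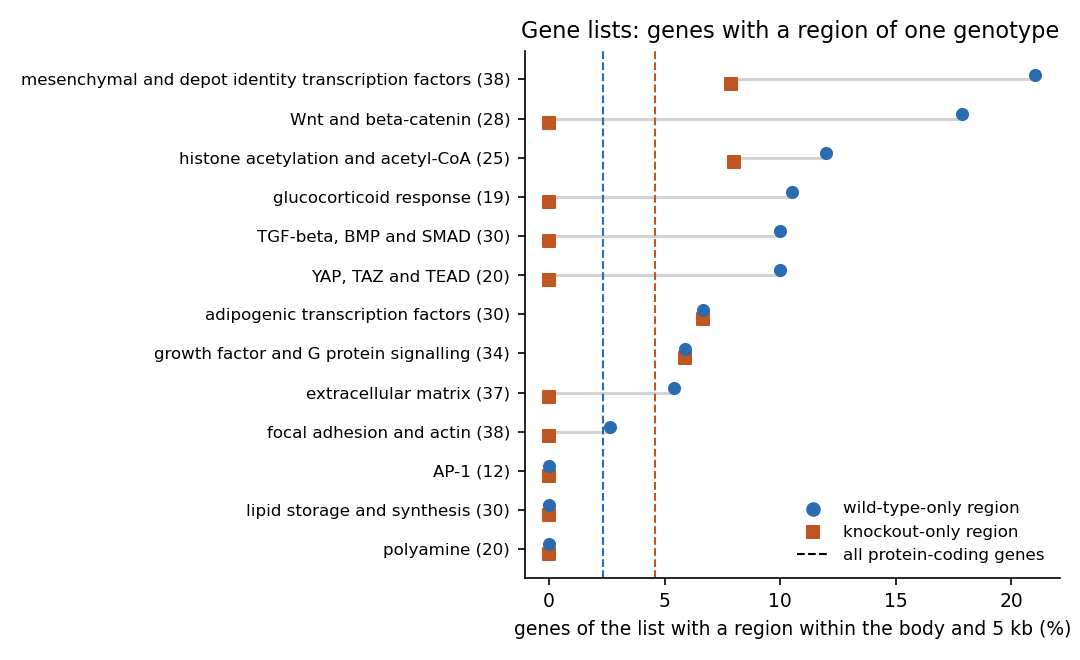
Percent of the genes of each list that had a wild-type-only region (blue circles) or a knockout-only region (orange squares) in the gene body or its 5 kb flanks, with the number of genes in brackets. Dashed lines are the shares among all protein-coding genes, 2.34% and 4.6%. The Wnt list lies at 17.9% and 0% and the mesenchymal transcription factors at 21.1% and 7.89%.

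Within the 442 regions, missing Azin2-/- peaks were commonest at narrow ones, which have less room for a peak of any list. Wild-type replicate 2b also had no peak at the narrow regions nearest Exo5 and Cdk19. The same shares were not counted in other sets, so they are not read as a trait of the Azin2-/- libraries. Under 500 bp in width were 9 of the 442 regions, and wild-type replicate 1 held all 9, replicate 2 held 4 and replicate 2b held 5. In 6 of the 9 at least 1 Azin2-/- library had no deposited peak, as in 7 of the 433 wider ones. Both regions without any Azin2-/- peak are among them. That inside Plekhh2, chromosome 17 from 84565894 to 84566357, was the strongest peak of wild-type replicate 1, with a deposited fold ratio of 186, yet ranked 4464 in replicate 2b and had no peak in replicate 2. That inside Mta3, a gene of the NuRD complex, chromosome 17 from 83707824 to 83708204, ranked 1402, 2517 and 30929 in replicates 1, 2 and 2b. The other 3 regions without an Azin2-/- peak among the 30000 strongest, chosen after their values were seen, lay in Fbxo11, 53370 bp from Sec14l1 and 11334 bp from Lmod2. Each was held by wild-type replicates 1 and 2b, while in replicate 2 that near Sec14l1 ranked 15672, that near Lmod2 187411 and that in Fbxo11 had no peak.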

How the data were processed

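H3K27ac ChIP-seq was analysed in 6 libraries, 3 per genotype, on build GRCm38 (mm10), per the submitters' processing notes. The 6 input libraries were not analysed here. The authors deposited 1 peak list per library, with a score, a fold ratio, a −log10 p and a −log10 q per peak. The aligner, peak caller and control used were not given in the sources used here. In all but 4 of the deposited peaks, 10 times the −log10 p, cut to a whole number, equals the score. Scores, fold ratios and q are the authors' own and served only to rank or filter within a list.

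Ranking put the higher score first, then the wider peak, then chromosome and start. Genes, in number 21631, came from the RefSeq table of GRCm38.p6 and promoters, 250 bases before to 50 after a start site, from its promoter table. Observed over expected CpG is the count of CpG times the window length over the product of the counts of C and G. Libraries were compared with exact permutation tests, two-sided, run in scipy 1.17.1 and adjusted by Benjamini-Hochberg. The peaks compared were chosen by genotype once and not chosen again for each exchange of labels. Merging and classing were tested on simulated peaks.

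The regions, gene lists and tests were chosen with earlier results of these data known. Named regions were the 12 of smallest mean rank held by all 3 wild-type libraries, the 2 without any Azin2-/- peak, and 3 on each side of the rule; for each gene list all genes with a region if 6 or fewer, otherwise the 4 of smallest mean rank. Some genes that this rule names are not reported here. Further names were added after their values were seen. Alternatives were other list lengths, ranking by fold ratio, a q threshold, fixed windows, joined replicates and left-out libraries. Motif searches used the promoter windows, since no genome was used here.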

Additional observations from a re-analysis of the deposited data

How the results depend on the processing

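The number of wild-type-only regions was 442 as reported, 520 with lists of 3000 peaks and 302 with lists of 10000, both within 1.5 times. It was 237 to 822 when 1 library was left out, and the number of knockout-only regions went from 833 to between 331 and 1370. With all peaks at a q of 0.01 or less the counts were 93 and 2252. When absence was asked of the other genotype's 10000 strongest peaks they were 68 and 190, of its 30000 strongest 5 and 82, and of its peaks at a q of 0.01 or less 6 and 166. These absence settings were added after the data were seen. The held-out difference of 26.2 points was 35.6 with the 3000 strongest peaks, 6.85 with 10000, 8.63 with wild-type replicates 2 and 2b joined and -4.36 at a q of 0.01 or less. The gene-end difference of -0.507 points was 14.9 when peaks were ranked by fold ratio and -16.7 to 12.3 when 1 library was left out, and was above 0 without wild-type replicate 1 or any of the Azin2-/- libraries. With the replicate number as a block it was -8.36, the mean of the pairs numbered 1 and 2. The labels do not say that a number marks a shared animal or day. At a q of 0.01 or less the CpG difference of 0.0915 was -0.277 and the chromosome X difference of 3.07 points was -0.468. Both kept their sign in the other 12 alternatives run for each. The chromosome X difference was 1.63 to 4.01 with 1 library left out. The cause of these changes was not tested. Read depth is unknown and limits what absence from a list can show.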
